A study of Mus musculus with 16 samples.

Results

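Pdk4, Cpt1a, Fgf21, Angptl4, Ehhadh, Acot1, Vnn1 and Creb3l3 are liver genes that fasting switches on through the nuclear receptor PPAR-alpha. They were chosen by name: a probe belonged to the set when its gene name on the array was one of these 8, of 37074 gene names in all. Each was read by 1 probe, and all 8 probes were well above background on all 16 arrays. Livers came from male C57BL/6 mice aged 10 weeks that had eaten a normal chow for 4 weeks. All were conventional mice, which had a gut microbiota of their own before any transfer. The vehicle group, Conv + PBS (n = 6, mice 1 to 6), is labelled as not transplanted, while the treatment text gives it reduced PBS. Conv + LM (n = 5, mice 13 to 17) received caecal microbiota of lean donors, and Conv + OM(HFD) (n = 5, mice 25, 26, 28, 29 and 30) that of donors made obese by a high-fat diet. The inocula were pools of several donors and the recipients were housed in groups with no cage named in the labels. The study compared the groups to learn what an obese or lean microbiota does to the liver of a conventional mouse, and its methods describe mice fasted for some hours.

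PPAR-alpha binds DNA as a partner of the retinoid X receptor RXR and is switched on by fatty acids. In the fasted liver, fatty acids that arrive from adipose tissue activate it, and its targets take up, burn and signal the use of fat. CREBH, the product of Creb3l3, is a membrane-bound transcription factor of hepatocytes that is released during fasting and works with PPAR-alpha on targets such as Fgf21. When food returns, insulin and the lipogenic genes take over and the fasting genes go down.

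Upstream sequence was searched because these genes share a receptor. RefSeq windows of build GRCm38.p6 were matched by symbol for 6 of the 8 genes, with 7 windows because Creb3l3 has a pair of starts, and the 250 bases before each start were read on the gene's strand. Vnn1 and Angptl4 had no window. Each motif was searched on both strands. AGGTCA, the element that many nuclear receptors bind, was present in 2 of the 7 windows and in 14.02% of all 32851 windows. AGGTCANAGGTCA, the direct repeat read by the PPAR-alpha and RXR pair, was allowed 2 mismatches, and was found in 1 of the 7 windows and in 3.24% of all windows. It overlaps AGGTCA by its construction. The E-box CACGTG, which clock factors and other basic helix-loop-helix proteins bind, was present in 1 of the 7 and in 6.02% of all windows.

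The stretches below are the 3 that held a match, in capitals, with up to 40 bases on each side, and the whole upstream window of Pdk4, the gene with the widest range among mice, which held none of the motifs. The Creb3l3 stretch lies at chr10:81092748-81092840 on the minus strand, and its capitals mark the direct repeat, from 209 to 197 bases before the start. The Cpt1a stretch, at chr19:3323167-3323252 on the plus strand, holds AGGTCA on the opposite strand, from 94 to 89 bases before the start. The Fgf21 stretch is at chr7:45615495-45615580 on the minus strand and its capitals are the E-box, from 50 to 45 bases before the start. The Pdk4 window is chr6:5496279-5496528, minus strand. A match says that the letters are there, not that a factor binds them.
Creb3l3: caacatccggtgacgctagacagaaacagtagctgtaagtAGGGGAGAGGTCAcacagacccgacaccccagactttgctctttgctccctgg
Cpt1a: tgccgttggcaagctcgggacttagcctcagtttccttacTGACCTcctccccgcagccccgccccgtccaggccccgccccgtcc
Fgf21: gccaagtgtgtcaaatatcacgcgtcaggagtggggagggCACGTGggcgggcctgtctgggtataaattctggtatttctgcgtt
Pdk4: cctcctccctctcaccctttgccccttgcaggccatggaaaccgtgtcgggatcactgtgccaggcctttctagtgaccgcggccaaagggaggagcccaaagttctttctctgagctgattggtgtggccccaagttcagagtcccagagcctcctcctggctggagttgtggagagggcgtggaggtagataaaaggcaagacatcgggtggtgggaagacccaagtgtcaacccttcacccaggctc

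Levels are given as log2 of the processed spot intensity with the 75th percentile of each array set to 0, so a step of 1 is a doubling. Between 49.7% and 58.3% of the probes of an array were well above background. Hepatocyte markers were above background on every array, with a summed level of 11.3 to 11.7 in each group. In mouse 1 (Conv + PBS) and mouse 25 (Conv + OM(HFD)) the summed level of the 6 neutrophil markers was 4.45 and 4.36, against at most 0.76 in the other livers, and that of the 6 Kupffer cell markers was 7.05 and 5.90, against at most 5.10. The 5 adipose markers summed to 3.18 in mouse 15 (Conv + LM), against at most 0.51 elsewhere. All 6 Kupffer cell markers and 3 of the 6 neutrophil markers were above background on every array, as was 1 of the 5 adipose markers. In whole liver, fewer cells of a type and less RNA per cell cannot be told apart.

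Pdk4 varied most. It encodes the kinase that shuts off pyruvate dehydrogenase so that pyruvate is spared and fat is burned, and its probe lies on chromosome 6 of mm9 at 5433441 to 5433500. In Conv + PBS mice its level was lowest at −0.90, had a median of 1.56 and was highest at 4.22. In Conv + LM it was −1.07 in mouse 13, −0.70 in mouse 14, 0.04 in mouse 15, 1.49 in mouse 16 and 3.80 in mouse 17. In Conv + OM(HFD) it was −1.63 in mouse 25, 1.02 in mouse 26, 1.39 in mouse 28, 3.44 in mouse 29 and 2.94 in mouse 30. Each group thus held livers with low and with high Pdk4, and the groups overlapped over nearly their whole range. The highest liver (mouse 6) had 57.7 times the signal of the lowest (mouse 25), and within a group the range was 34.8-fold in Conv + PBS, 29.1-fold in Conv + LM and 33.6-fold in Conv + OM(HFD). The last 2 ranges each rest much on 1 mouse. Without mouse 17 the Conv + LM levels ran from −1.07 to 1.49, and without mouse 25 those of Conv + OM(HFD) from 1.02 to 3.44. With another background correction (normexp, with an offset of 50 added to every spot) the range over all livers was 34.4-fold. The SD of Pdk4 within groups was 2.03, at percentile 99.96 of the 20328 genes with a value on every array.

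**Figure D1:**
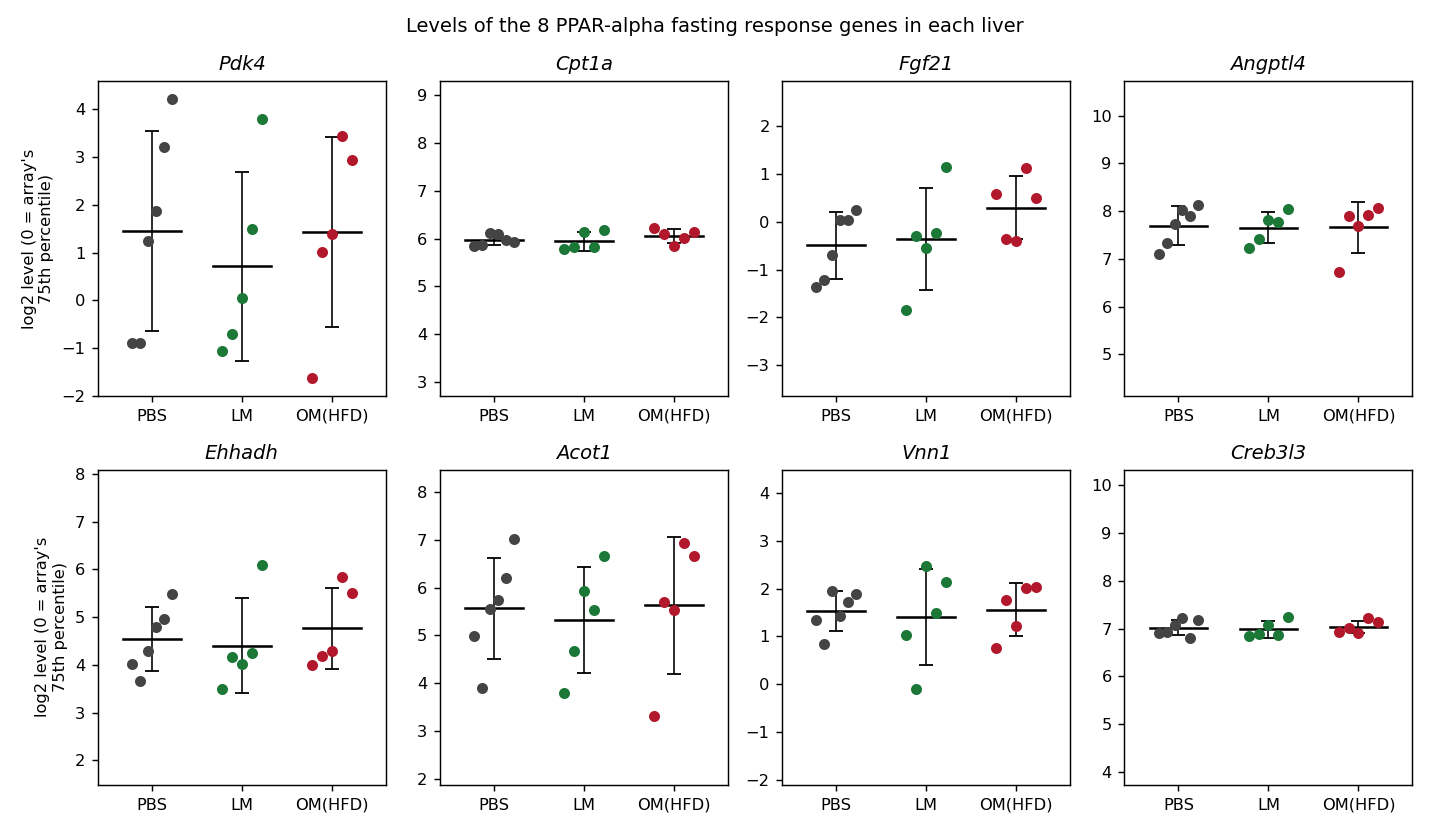
Log2 level of each gene in each liver (0 is the 75th percentile of the array), with 1 point per mouse, the group mean as a line and the SD as an error bar, for the vehicle (n = 6), lean (n = 5) and obese (n = 5) microbiota groups. Every panel spans the same number of log2 units, and Pdk4 runs from −1.63 to 4.22 while Cpt1a stays between 5.77 and 6.22.

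Acot1 came next in range. Its product is a cytosolic thioesterase that splits acyl-CoA, and near-identical neighbours such as Acot2 may share signal with its probe (chromosome 12, 85358452 to 85358511, mm9). Its level in Conv + PBS was lowest at 3.91, had a median of 5.65 and was highest at 7.03. Conv + LM mice had 3.79, 4.68, 5.93, 5.52 and 6.66 (mice 13 to 17), and Conv + OM(HFD) mice 3.32, 5.70, 5.53, 6.94 and 6.67 (mice 25, 26, 28, 29 and 30). The low livers were mice 2, 13 and 25, 1 in each group, and the 13.1-fold range over all mice was again spread over every group.

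Ehhadh encodes the bifunctional enzyme of peroxisomal beta-oxidation and is read on chromosome 16 at 21761914 to 21761973 (mm9). Its level ran from 3.66 to 5.49 in Conv + PBS, with a median of 4.54. It was 3.48, 4.17, 4.03, 4.24 and 6.09 in mice 13 to 17 of Conv + LM and 3.99, 4.19, 4.30, 5.84 and 5.51 in mice 25, 26, 28, 29 and 30 of Conv + OM(HFD). Mouse 17 stood highest, and mice 29, 30 and 6 followed. Over all livers the range was 6.08-fold.

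Fgf21 and Angptl4 encode secreted proteins that carry the fasting signal to other organs. Fgf21, the hormone fibroblast growth factor 21 (chromosome 7, 52869305 to 52869364, mm9), was between −1.36 and 0.24 in Conv + PBS, with a median of −0.33. In Conv + LM it was −1.86, −0.30, −0.54, −0.23 and 1.15 in mice 13 to 17, and in Conv + OM(HFD) 0.58, −0.35, −0.39, 1.13 and 0.50 in mice 25, 26, 28, 29 and 30. In Conv + OM(HFD), 3 livers were above the highest Conv + PBS liver, and the groups overlapped. Angptl4, an inhibitor of lipoprotein lipase (chromosome 17, 33911880 to 33911939, mm9), ranged 2.62-fold, from 6.73 in mouse 25 to 8.12 in mouse 6. The group medians of Angptl4 were 7.81 with PBS, 7.76 with LM and 7.89 with OM(HFD).

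The remaining genes differed in spread. Vnn1, the vanin pantetheinase that releases cysteamine from pantetheine (chromosome 10, 23624524 to 23624583, mm9), ranged 5.91-fold, from −0.09 in mouse 14 to 2.47 in mouse 15, both of Conv + LM. Cpt1a, which lets long-chain fatty acids into mitochondria (chromosome 19, 3385374 to 3385433, mm9), ranged 1.37-fold and Creb3l3 (chromosome 10, 80547080 to 80547139, mm9) 1.36-fold. Set against all 20328 genes, the SD within groups stood at percentile 99.0 for Acot1, 96.2 for Ehhadh, 96.0 for Fgf21, 92.9 for Vnn1 and 79.3 for Angptl4. Cpt1a was at percentile 22.2 and Creb3l3 at 23.8, among the steadier genes of the array. The median SD was 0.75 for the 8 genes and 0.24 for all genes. Group membership held between 0.27% (Angptl4) and 17.6% (Fgf21) of the variance of a gene.

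Most of the genes varied together, and Cpt1a least with the others. Each liver was expressed as its deviation from the mean of its group, divided by the SD within groups, and the mean over the 8 genes was taken as a description of the liver. It was lowest in mouse 13 at −1.07, mouse 2 at −0.94, mouse 25 at −0.88, mouse 1 at −0.82 and mouse 14 at −0.70. It was highest in mouse 17 at 1.46, mouse 6 at 0.86, mouse 29 at 0.81 and mouse 30 at 0.68. Deviations are taken from each group's own mean, so every group has livers above and below it by construction. A difference between groups cannot show in this measure. The 5 lowest livers carry the first animal numbers of their groups, and the 4 highest carry the last ones. The labels do not say what the numbers stand for (cage, order or time of death), so such a factor cannot be told apart from the shared variation, and the permutations within groups, which treat mice as interchangeable, do not account for it. Mice 1 and 25, with the high neutrophil and Kupffer cell markers, were among the low livers. So were mice 2, 13 and 14, with neutrophil markers at 0.25, 0.10 and 0.64 and Kupffer cell markers at 4.58, 4.18 and 4.74. The part of these cells in the deviations was not tested.

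**Figure D2:**
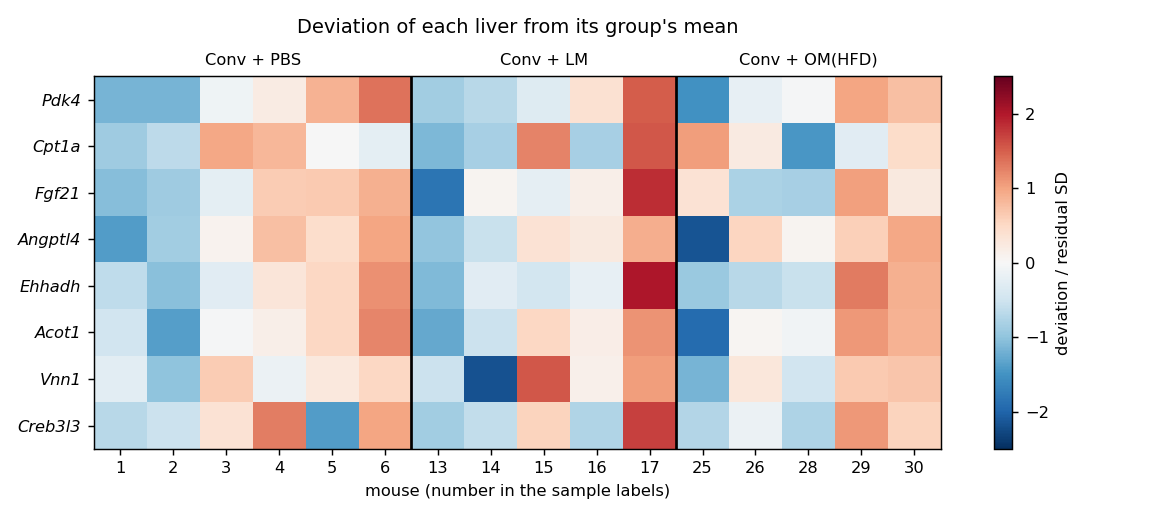
Deviation of each liver from its group's mean, divided by the SD within groups, for the 8 genes (rows) and 16 mice (columns, by the number in the labels), in red above and in blue below the mean. Mice 17 and 30 are above the mean of their group for all 8 genes, and mice 1, 2 and 13 are below it for all 8.

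Of the 28 pairs of genes, 28 had a positive Pearson r between deviations over the 16 mice, with a median of 0.63 and a range from 0.24 to 0.92, and Spearman's rho ran from 0.21 to 0.93. Taken by group, 28 pairs were positive in Conv + PBS (median r 0.63) and 28 in Conv + LM (0.81), while 22 were in Conv + OM(HFD) (0.68, lowest −0.42). By permutation of mice within groups and Benjamini-Hochberg adjustment over the 28 pairs, 20 passed at an adjusted p under 0.05 for r and 19 for rho. The count was 11 without mouse 17, 13 without mouse 2, and 12 with quantile normalization or with the authors' processed values. The closest pair was Pdk4 with Acot1, at r = 0.92 and rho = 0.93, each with a permutation p of 1e-05, the smallest that 100000 permutations can give, and an adjusted p of 0.00014. Pdk4 with Ehhadh had r = 0.91 and rho = 0.91 with the same p, and Angptl4 with Acot1 had r = 0.91 and rho = 0.91 (adjusted permutation p = 0.00028 for each). Fgf21 was closest to Ehhadh, at r = 0.87 (rho = 0.86, adjusted permutation p = 0.00205).

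**Figure D3:**
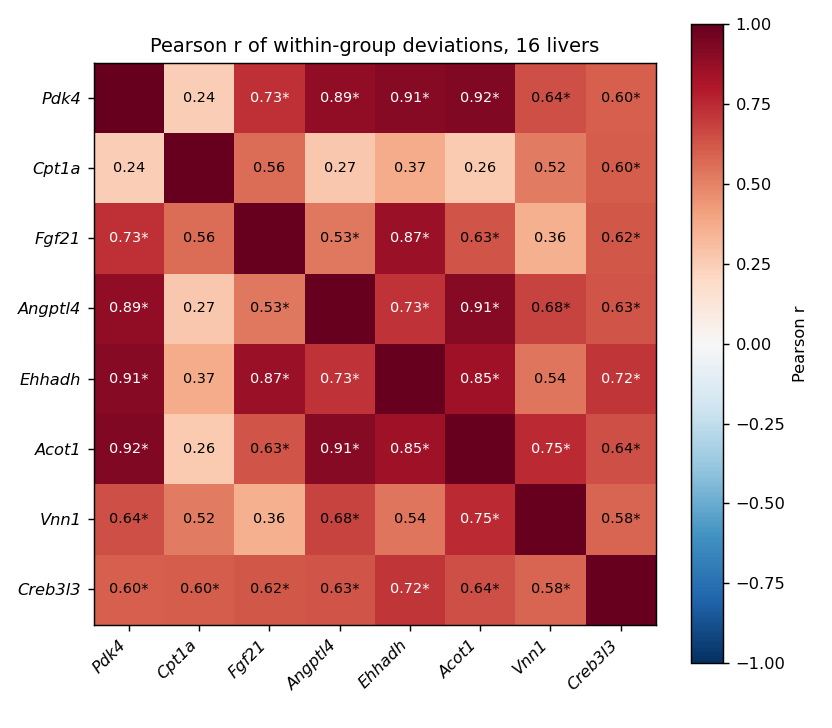
Pearson r between the within-group deviations of each pair of genes over 16 livers. An asterisk marks the 20 of 28 pairs with an adjusted permutation p under 0.05 (11 without mouse 17), and the pale row and column are those of Cpt1a.

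The 8 pairs that did not pass were 6 of the 7 pairs of Cpt1a, Fgf21 with Vnn1, and Ehhadh with Vnn1. Cpt1a had the lowest median r with the others, 0.37, and its r with Creb3l3 was 0.60 (rho = 0.59, adjusted permutation p = 0.0426). Without the 2 mice farthest from the median of the first gene of a pair, the median r was 0.52, with a range from 0.07 to 0.93.

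Arrays were on 2 slides with 8 mice each, and every group was on both. Members were higher on slide 2: Pdk4 averaged 1.87 there and 0.56 on slide 1, and Acot1 6.07 and 4.96. Within slide 1 the median r of the 28 pairs was 0.38 (range −0.21 to 0.97), and within slide 2 it was 0.73 (range 0.23 to 0.97). With group and slide means both removed, 28 pairs stayed positive, the median r was 0.56 and 8 pairs passed. Pdk4, Angptl4, Ehhadh and Acot1, named after their values were seen, had r between 0.73 and 0.92 in their 6 pairs, between 0.83 and 0.97 within slide 1 and between 0.60 and 0.92 within slide 2. The share of probes above background had r = −0.02 with Pdk4 (rho = 0.06, permutation p = 0.954 and 0.851, adjusted over the 2 array measures the same), and without the 2 farthest mice r was −0.26. Within slides that r was −0.67 and 0.88, of opposite sign. The 75th percentile of an array had r = −0.35 with Pdk4 (rho = −0.37, permutation p = 0.224 and 0.195, adjusted 0.448 and 0.390), −0.48 without the 2 farthest mice, and −0.77 and 0.18 within slides 1 and 2.

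Other genes were ranked by their r with the mean deviation of the 8 genes, over the 17020 further genes above background on all arrays. The median of all these r was 0.11, 2.21% were at 0.8 or more and 0.828% at −0.8 or less. The most like was Fitm2, which helps to form lipid droplets, at r = 0.98 (rho = 0.95). Acsl1, which activates long-chain fatty acids, had r = 0.95, and Pex11a, which divides peroxisomes, r = 0.94. The other named genes among the first 10 were Fam195a, Rbpms, Oplah, Dram2 and E2f8, with r from 0.93 to 0.96, and E2f8, a repressor of the cell cycle, ranged 17.6-fold among the livers. Without the 2 livers farthest out, these r stayed between 0.89 and 0.96.

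A long intergenic RNA on the forward strand of chromosome 16 (21794418 to 21809113, mm9) was among the 10 most alike, at r = 0.94. It begins 32444 bases beyond the probe of Ehhadh, a gene on the opposite strand, and its r with Ehhadh itself was 0.95 (rho = 0.96). A second one, on chromosome 19 (61227541 to 61274669, mm9), had r = 0.93 and ranged 11.8-fold. At the other end were Epha1 (r = −0.94), Bhlhe40 (−0.92), which represses clock genes, Tmem194 (−0.92), Ihh (−0.90), the Indian hedgehog signal, and Dcp1b (−0.90), a cofactor of mRNA decapping. The level of Ihh ran from −3.48 to 0.16.

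Lists of related genes were read against the same measure. In 6 lists of PPAR-alpha and CREBH targets 63 of 64 genes could be tested, and the median r was 0.79, against 0.11 for all genes. Of these, 58 were positive and 29 reached 0.8. Mitochondrial beta-oxidation had a median r of 0.82 over 15 genes (15 positive), peroxisomal oxidation 0.83 over 13 (12 positive) and omega-oxidation 0.86 over 5 (5 positive). The lipid droplet coat gene Plin2 had r = 0.81. Cyp4a14 (r = 0.88) and Cyp4a10 (r = 0.87), fatty acid omega-hydroxylases, ranged 46.1-fold and 9.95-fold among livers.

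Ketogenesis, with a median r of 0.49 over 6 genes, lipid uptake and droplets (0.53 over 14) and the further targets (0.55 over 10) were less uniform. Regulators had a median r of 0.28 over 19 genes. Ppara itself had r = 0.70, with levels between 6.03 and 6.67, and Hnf4a, a nuclear receptor that sets hepatocyte identity, had r = 0.92.

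Genes of the fed state ran the other way: the lipogenic list had a median r of −0.57 over 11 genes, with 3 positive. Srebf1, the insulin-driven activator of lipogenesis, had r = −0.84 (levels 3.59 to 5.77) and Fasn, fatty acid synthase, −0.70. Genes that insulin represses had a median of 0.29 over 5 and glucocorticoid-induced genes 0.17 over 6. Clock genes had a median r of −0.40 over 12 genes, with 4 positive. Arntl, the activator BMAL1, had r = 0.91 (rho = 0.94) and ranged 11.1-fold, from −3.28 to 0.18. At the other extreme, Dbp, a clock output factor, had r = −0.90 (rho = −0.91) and ranged 5.70-fold. The time of death of each mouse was not among the labels, and the part of the clock genes in the shared variation was not tested. Neutrophil markers had a median r of −0.40 and Kupffer cell markers of −0.34 with the same measure. With mice 1 and 25 left out, 18 of the 28 pairs passed and the median r of the pairs was 0.70.

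**Figure D4:**
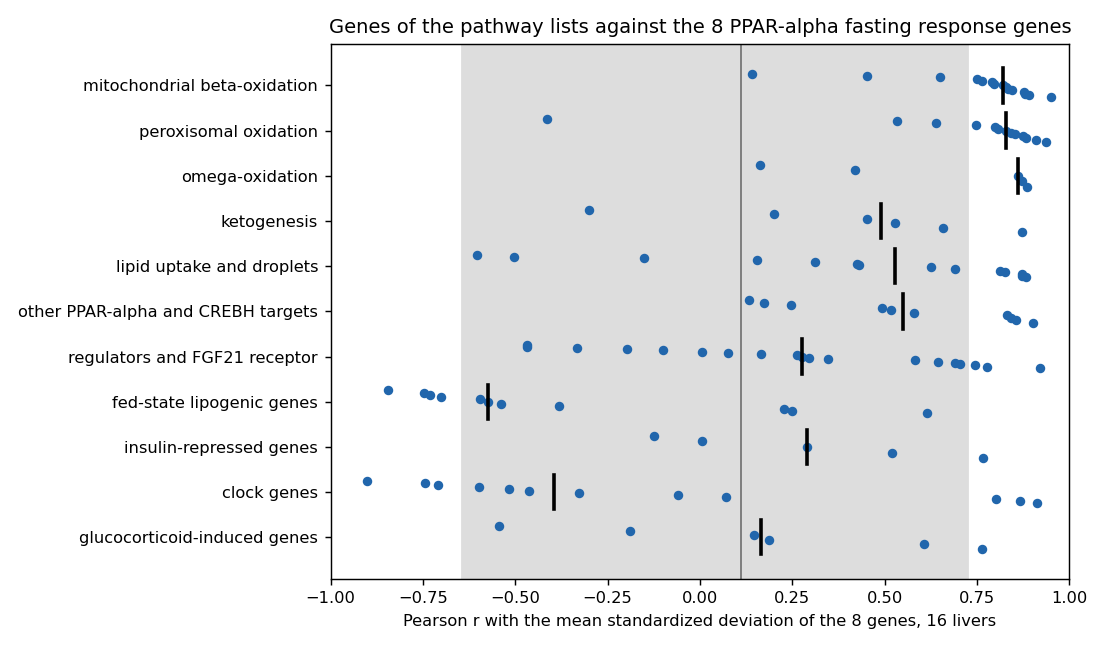
Pearson r of each listed gene (points) with the mean standardized deviation of the 8 genes over 16 livers, the median of each list (black bars), the median of all genes (grey line, 0.11) and their 5th to 95th percentile (grey band, −0.65 to 0.72). The 3 oxidation lists sit at medians of 0.82 to 0.86, and the lipogenic list at −0.57.

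The groups did not separate on these genes. For Conv + OM(HFD) vs. Conv + PBS, limma called 0 of the 8 genes at an unadjusted p under 0.05, against 3.27% of all 20404 genes tested (667 genes), and 0 genes of the array passed an adjusted p of 0.05. The exact permutation test also called 0 of the 8, against 3.23% of the 20328 genes with a value on every array. With OM(HFD) 6 means were higher and 2 lower, the median log2 fold change was 0.05, and the groups overlapped for all 8 genes. Groups that did not overlap were found for 0.236% of all genes in this comparison, so overlap was the rule on the array. All 8 also overlapped in the other comparisons, where 0.28% (LM vs. PBS) and 0.453% (OM(HFD) vs. LM) of all genes had groups that did not. Fgf21 had the largest difference, with means of 0.29 ± 0.66 (SD, n = 5) and −0.49 ± 0.70 (SD, n = 6). Its log2 fold change was 0.79, SE 0.46, with a 95% interval from −0.19 to 1.77 (limma p = 0.107, adjusted p = 0.9999, exact two-sided permutation p = 0.0931, where the smallest possible is 0.00216). With the slide as a block its log2 fold change was 0.84.

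For Pdk4 the same comparison gave −0.03 with an interval from −2.44 to 2.38, so a several-fold difference in either direction could not have been told from its spread among mice. Cpt1a gave 0.09 (−0.12 to 0.30) and Creb3l3 0.02 (−0.20 to 0.23), the narrowest intervals. Angptl4 gave −0.04 (−0.56 to 0.48), Ehhadh 0.23 (−0.76 to 1.22), Acot1 0.06 (−1.37 to 1.49) and Vnn1 0.03 (−0.79 to 0.85).

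For Conv + LM vs. Conv + PBS, limma and the exact test again called 0 of the 8 genes, against 3.95% and 4% of all genes at an unadjusted p under 0.05, and their log2 fold changes had a median of −0.08. Fgf21 was higher in Conv + LM, by 0.14, and the other 7 were lower. Pdk4 had the largest difference, −0.75 (95% interval −3.16 to 1.67, SE 1.13, limma p = 0.520, exact permutation p = 0.565), with means of 0.71 ± 1.98 (SD, n = 5) and 1.46 ± 2.10 (SD, n = 6). This log2 fold change was −1.52 without mouse 17, −2.06 within slide 1 and 0.04 within slide 2. The vehicle mice are shared by the comparisons with LM and with OM(HFD).

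For Conv + OM(HFD) vs. Conv + LM, 0 of the 8 genes were called by limma or the exact test, against 2.71% and 3.09% of all genes. All 8 means were higher in Conv + OM(HFD), with log2 fold changes from 0.00 (Angptl4) to 0.72 (Pdk4) and a median of 0.23, against 0.01 for all genes. Since 20 of the 28 pairs were correlated among livers, these are not 8 independent differences. Fgf21 differed by 0.65 (95% interval −0.37 to 1.67, exact permutation p = 0.302, smallest possible 0.00794). Without mouse 17, the Conv + LM liver with the highest mean deviation, the log2 fold change of Fgf21 was 1.03 with an unadjusted limma p of 0.0326, and this was the single call among all 3 comparisons when any mouse was left out.

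**Figure D5:**
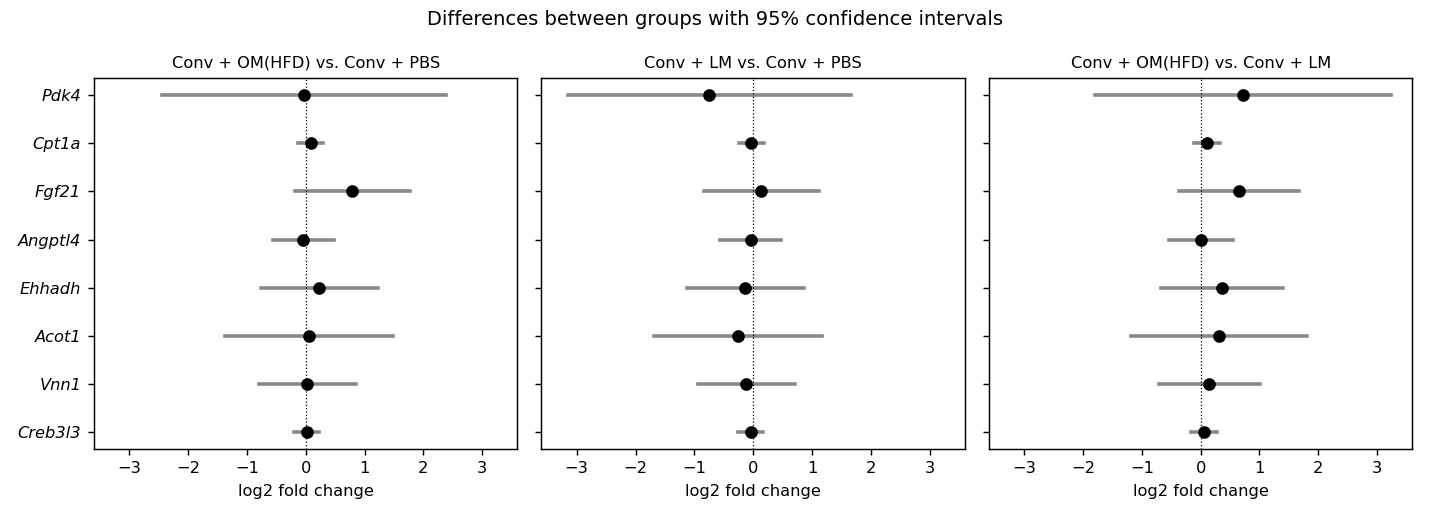
Log2 fold change of each gene (points) with its 95% confidence interval from limma (lines) in the 3 comparisons. All 24 intervals include 0, from the widest for Pdk4 to the narrow ones of Cpt1a and Creb3l3.

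Among the 63 further targets tested, limma called 0 at an unadjusted p under 0.05 in Conv + OM(HFD) vs. Conv + PBS, and 1 in each of the other comparisons, while 3.27% of all genes were called in the first, 3.95% with LM against PBS and 2.71% with OM(HFD) against LM. The exact permutation test called 0 in both comparisons with the vehicle and 2 in Conv + OM(HFD) vs. Conv + LM, Apoa5 and Acadl, the latter named after its values were seen, where the exact test called 3.09% of all genes. These shares of the targets are near or below those of all genes. Slc16a6, a monocarboxylate transporter, was higher with LM than with PBS, by 0.39 (SE 0.18, limma p = 0.0449, exact permutation p = 0.0563). Apoa5, a secreted regulator of triglyceride clearance, was higher with OM(HFD) than with LM, by 0.20 (SE 0.09, limma p = 0.0426, exact permutation p = 0.0397). Neither passed adjustment over all genes. Cyp4a14 was 1.07 higher with OM(HFD) than with PBS (SE 0.94, limma p = 0.273, exact permutation p = 0.331), and Cyp4a10 differed by 0.52 (SE 0.54, limma p = 0.347, exact permutation p = 0.429). Ppara and Plin2 differed by 0.04 and −0.01 in that comparison.

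The lipogenic genes, which ran against the fasting genes among livers, had 4 of 11 genes lower and 0 higher by limma at an unadjusted p under 0.05 with OM(HFD) than with PBS, against 3.27% of all genes, and none passed adjustment. The exact permutation test called 2 of the 11, Thrsp and Acly, against 3.23% of all genes. The 4 genes called by limma had r between −0.75 (Acaca) and −0.54 (Elovl6) with the mean deviation of the fasting genes. They varied along the same measure among livers, so they cannot be counted as 4 independent differences. The list was also chosen with earlier results of these data known. Acly, which makes cytosolic acetyl-CoA, was lower by 0.60 (exact permutation p = 0.0411, limma p = 0.0545, named after its values were seen). Thrsp, an inducer of lipogenesis, was lower by 0.89 (SE 0.33, limma p = 0.0151, exact permutation p = 0.0303), Acaca, which makes malonyl-CoA, by 0.54 (limma p = 0.0380, exact permutation p = 0.0541) and Fasn by 0.76 (limma p = 0.0404, exact permutation p = 0.0671). In Conv + OM(HFD) vs. Conv + LM, Thrsp was lower by 0.99 (limma p = 0.0105), and in Conv + LM vs. Conv + PBS the NADPH-forming malic enzyme Me1 was lower by 0.43 (limma p = 0.0143, exact permutation p = 0.00866). Limma called 0 of the regulators, the insulin-repressed and the glucocorticoid-induced genes in the 3 comparisons. The exact permutation test called 1 of the 19 regulators, against 4% of all genes, the fibroblast growth factor receptor gene Fgfr4, lower by 0.16 with LM than with PBS (exact permutation p = 0.0368, limma p = 0.0585), also named after its values were seen. Of the 12 clock genes tested, Per2 was called by limma, lower by 0.35 with OM(HFD) than with LM (limma p = 0.0232, exact permutation p = 0.0635), where limma called 2.71% of all genes. It was also called by the exact test with OM(HFD) against PBS, lower by 0.26 (exact permutation p = 0.0433), where that test called 3.23% of all genes. Whether the lipogenic and the fasting genes differ in these contrasts was not tested.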

How the data were processed

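Single-colour arrays (Cy3) of liver RNA were read for 16 mice, 1 array each. Per the file headers, the authors scanned them with Agilent Feature Extraction 10.10.1.1, whose processed intensity is background-subtracted and detrended within an array. The series table the authors deposited holds log2 values with unstated scaling; set against the scanner files they are the median spot intensity, quantile-normalized. Positions are on mm9, from the array design.

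From the intensity values, control spots and 1785 outlier spots were left out, spots of a probe averaged, and the log2 of each array's 75th percentile was subtracted from the log2 values. A probe was kept if 5 or more of the 16 arrays had it well above background (30664 probes), and the brightest stood for its gene (20404 genes). Limma 3.58.1 in R 4.3.3 fitted 3 groups over all genes, with Benjamini-Hochberg adjustment. Calls were made at an adjusted and at an unadjusted p under 0.05. The study's methods give a threshold of 0.05 and name no adjustment. They also considered the size of the fold change, which was not used for calls here. Scripts were tested on simulated data. Pairs were permuted within groups 100000 times. Mice are separate animals, and their number limits the precision.

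The 8 genes, the gene lists and the tests were chosen with earlier results of these data known. Named genes are the 8, the 10 most and 5 least like them by r among genes on all arrays, at most 3 called genes per list and comparison, and Ppara, Cyp4a10, Cyp4a14 and Plin2, with some further genes not reported here; list genes given for their r (Srebf1, Hnf4a, Arntl, Dbp) were picked after their values were seen. The labels pair no mice. Alternatives were another background correction, quantile normalization, the authors' log2 values, other filters and probes, the slide, array weights, an unpaired t-test, which the study's array methods do not name, and leaving out each mouse.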

Additional observations from a re-analysis of the deposited data

Results flagged for a closer look

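Of the 24 sets of values (8 genes in 3 groups), 1 had a sample far from the others. Angptl4 was 6.73 in mouse 25 of Conv + OM(HFD), with the nearest liver of its group at 7.68. The gap made up 0.712 of the range of the group, where 0.71 is the limit for 5 samples, and chance alone marks about 1 set in 20. Neutrophil and Kupffer cell markers were high in this liver, and their part in its Angptl4 level was not tested.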

How the results depend on the processing

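The count of 0 called genes held in the 3 comparisons under the 12 other settings run and with mice 1 and 25 left out, a setting chosen after the data were seen. Leaving out each mouse in turn gave 0 to 1 for Conv + OM(HFD) vs. Conv + LM and 0 in the others. Fold changes that were not called turned sign in 12, 12 and 5 of 96 recalculations for OM(HFD) vs. PBS, LM vs. PBS and OM(HFD) vs. LM, and in 23, 16 and 9 of 128 leaving out a mouse. For the 28 pairs, 20 passed in the main setting, and 12 with quantile normalization, 12 with the authors' processed values, 8 with group and slide means removed, and 0 within slide 1 only and 0 within slide 2 only (5 and 9 at an unadjusted p under 0.05), where the smallest p these few mice allow is 0.0139. Leaving out each mouse gave 11 to 19 pairs, 11 without mouse 17 and 13 without mouse 2. The median SD of the 8 genes, 0.754, was 0.616 to 0.767 under other settings and 0.677 to 0.784 leaving out a mouse. The median r of the targets, 0.790, was 0.663 with quantile normalization and 0.679 with the authors' processed values, settings added later, and 0.753 to 0.802 leaving out a mouse. Over all genes, the number called at an unadjusted p under 0.05 was 878 with the slide as a block and 1063 within slide 1 against 553 for Conv + OM(HFD) vs. Conv + LM, and 439 within slide 2 against 667 for Conv + OM(HFD) vs. Conv + PBS. The causes were not tested. No paired analysis was possible because no mouse number occurs in more than 1 group. The 8 genes were above background on every array. Background correction by normexp, which here added an offset of 50 to every spot, still moved the Pdk4 range from 57.7-fold to 34.4-fold. The parts of the offset and of the background correction in this were not told apart.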
